A study of Mus musculus with 203 samples.

Results

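The effect of 3 weeks of house dust mite (HDM) exposure on gene expression in mouse airways was measured by comparing RNA-seq libraries of 10 HDM airways with those of 11 PBS airways. The other libraries of the series are 22 of parenchyma at 3 weeks and 160 of both tissues at 11 weeks. The libraries were taken by their labels alone (week 3, airway, HDM or PBS), and all expressed genes were described. The mice were female Balb/C aged 18 to 20 weeks. HDM extract was given intranasally on 5 days per week for 3 weeks, and controls received PBS in the same way. The airways were dissected from the parenchyma of the lung before RNA extraction, so a library is a whole airway sample with its epithelium, muscle, connective tissue, immune cells and any adjoining tissue. Each library has its own code (X63, for example), which served as its name. The labels do not say which airway and parenchyma libraries came from the same mouse.

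HDM is a common inhaled allergen that carries proteases and microbial products. In mice its repeated inhalation is known to activate the airway epithelium through alarmins such as IL-33, to recruit dendritic cells and T helper cells that secrete IL-4, IL-5, IL-13 and IL-17, and to bring eosinophils, neutrophils and macrophages into the airway wall. IL-13 drives mucus production by goblet cells and the alternative activation of macrophages. The comparison asks which of these known components, and which other genes, differed between HDM-exposed and PBS airways.

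Total counts were 23389979 to 31914697 per HDM airway library and 24540605 to 37065455 per PBS airway library. Levels are given as CPM, counts scaled to library size after TMM normalization, and changes as log2FC, the log2 of HDM over PBS from limma-voom. Club cell genes marked the airway samples, with a summed level that had a median of 69792 CPM in PBS airways against 34309.99 CPM in PBS parenchyma, and ciliated cell genes stood at 1895 against 888 CPM. Alveolar tissue was present as well, since the alveolar type II list summed to 21114 CPM in PBS airways and 30536 CPM in PBS parenchyma. In such bulk samples fewer cells of a type and less RNA per cell cannot be told apart.

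Library levels varied within both groups, and 3 libraries stood apart. The HDM library X63 had the lowest alternatively activated macrophage level of its group (2443 CPM, next lowest 4984) and the lowest alveolar type II level (4784 CPM, next 11353). It also had the highest sum of the neutrophil and alarmin list (7821 CPM, next 4677) and the highest cardiac level (1427 CPM, next 662). Of the neutrophil and alarmin sum, Lcn2 (lipocalin-2) made up 3719.6 CPM. S100a8 in X63 was 185.7 CPM (group median 215), and Il1b was the lowest of the group (57.1 CPM). The PBS library X81 had the highest cardiac level (7238 CPM, next 4155) and the lowest alveolar type II level (6088 CPM). The PBS library X21 had the highest immunoglobulin constant level (9265 CPM, next 3130.1). All 3 were kept, and the counts without them are given beside the results.

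**Figure D1:**
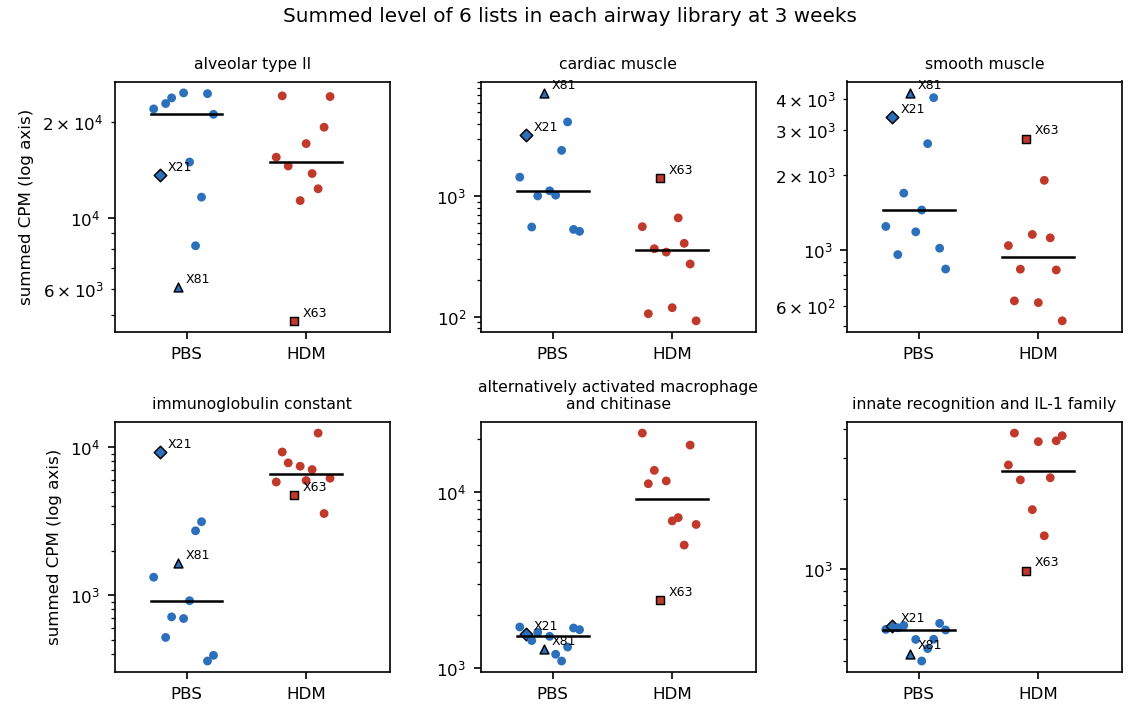
Summed CPM (log axis) of 6 gene lists in each PBS airway library (blue) and HDM airway library (red) at 3 weeks, with the group median as a line. The square is X63, the triangle X81 and the diamond X21, and the alternatively activated macrophage and innate recognition lists separate the groups without overlap while the alveolar type II, cardiac and smooth muscle lists do not.

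HDM exposure changed a large share of the airway transcriptome in both directions. Of 17381 genes tested, 2110 (12.1%) were upregulated and 2057 (11.8%) were downregulated at a limma adjusted p under 0.05 with a log2FC beyond 1 or -1. Without the 3 libraries that stood apart the counts were 2226 and 2186, of which 2061 and 1946 were also called with them kept. Every HDM library lay above every PBS library for 1991 genes (11.5%) and below every PBS library for 1737 genes (9.99%). The rises reached further than the falls, as 272 genes had a log2FC of at least 3 and 65 one of at most -3. Without the limit on log2FC, 5925 genes were higher and 7037 lower at the same adjusted p, and the median log2FC of all genes was -0.07.

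Gene classes and levels differed in their shares of calls. Among immunoglobulin variable segments 98.1% rose, and among T cell receptor variable segments 22 of 25 rose. Protein-coding genes were called up in 10.8% and down in 11.3% of cases. Antisense genes fell in 27.6% of 369 cases, and since strand-specific counting was not stated, their reads cannot be told apart from those of the overlapping gene. Genes with a mean under 1 CPM made up 2087 of those tested, of which 19.3% rose and 23.5% fell, against 10.3% and 7.44% of the 1735 genes at 100 CPM or more.

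**Figure D2:**
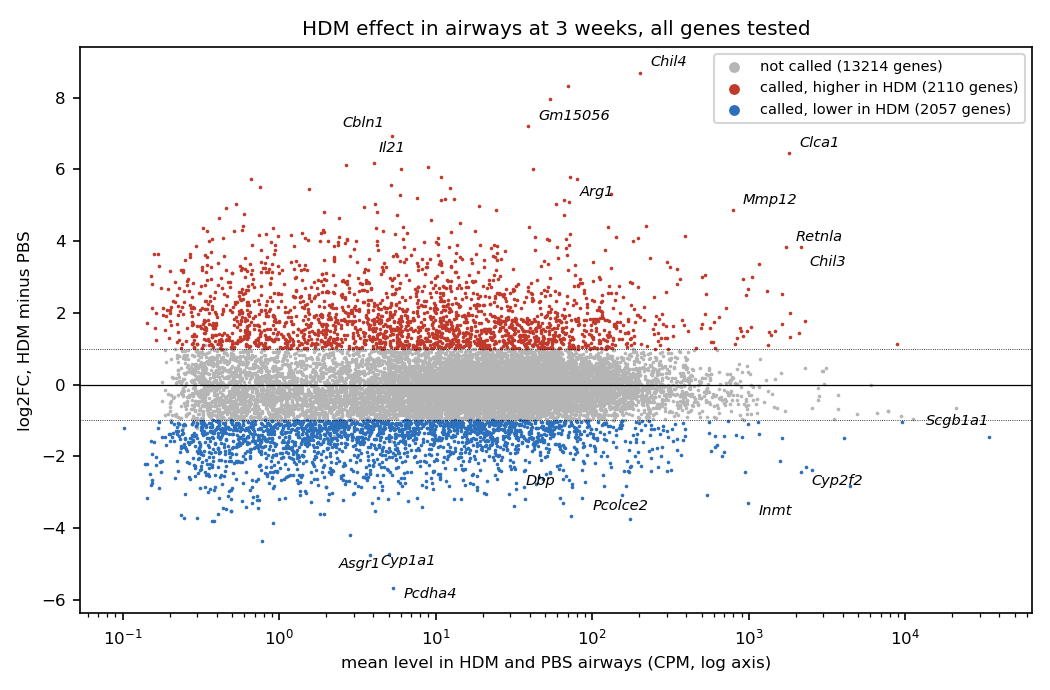
Each point is 1 of the 17381 genes tested, with its mean level in HDM and PBS airways in CPM on a log x axis and its log2FC (HDM minus PBS) on the y axis. Red points are the 2110 upregulated and blue points the 2057 downregulated genes, and the dotted lines mark a log2FC of 1 and -1. Rises reach 8.69 for Chil4 in this limma fit, while the deepest fall is -5.66 for Pcdha4.

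A total of 45 gene lists was used to describe the changes. They hold 827 genes of the table, of which 764 passed the filter on low counts and 25 stand in more than 1 list. The share of a list that rose or fell is to be read against the 12.1% and 11.8% of all tested genes.

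**Figure D3:**
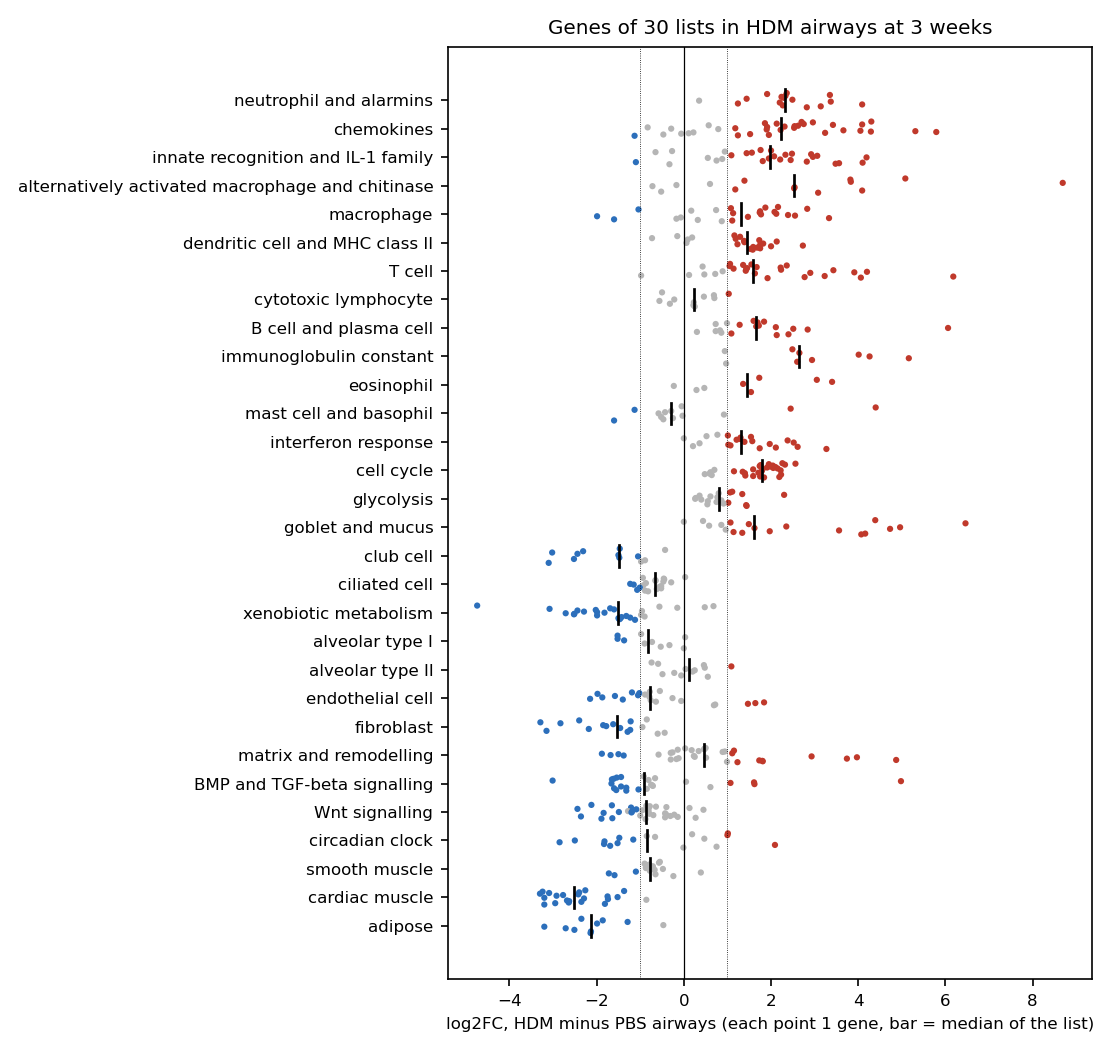
The log2FC (HDM minus PBS airways at 3 weeks) of each tested gene of a selection of the lists, 1 point per gene, with the median of the list as a bar. The selection was not made by size. Red and blue points are genes called up and down. Immune lists lie mostly to the right of 0, with 15 of 16 neutrophil genes called up, and club cell, xenobiotic, fibroblast, cardiac and adipose lists mostly to the left.

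Type 2 cytokines were scarce in these libraries but differed between the groups. Il13, the cytokine that drives mucus production, was 0.269 to 2.48 CPM (median 0.734) in HDM airways and 0 to 0.0603 CPM (median 0) in PBS airways. It did not overlap between the groups (limma adjusted p = 5.3e-11), but each PBS library held at most 3 counts, so no fold is given. Il4, which directs T cells to the type 2 program and B cells to IgE, was 0.2198 to 2.03 CPM (median 1.08) in HDM airways and 0.0971 to 0.5001 CPM (median 0.300004) in PBS airways, overlapping in 3 HDM libraries (log2FC 1.52, SE 0.37, limma adjusted p = 3.2e-04). Il5, the eosinophil growth factor, did not pass the filter, with 0 to 13 counts (median 5) per HDM library and 3 to 21 counts (median 7) per PBS library.

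Alarmins and receptors of the same list moved in both directions. Il33, the epithelial alarmin, was 118.9 to 249 CPM (median 137.9) in HDM airways and 48.1 to 72.1 CPM (median 56.1) in PBS airways (log2FC 1.41, SE 0.13, limma adjusted p = 5.2e-13), and every HDM library was above every PBS library. Tslp, another alarmin of the epithelium, was 1.01 to 2.06 CPM (median 1.66) in HDM airways and 4.01 to 8.38 CPM (median 5.96) in PBS airways (log2FC -1.75, SE 0.15, limma adjusted p = 8.2e-14), the opposite direction and again without overlap. Il13ra2, the decoy receptor of IL-13, rose (log2FC 3.99), while Il1rl1, the receptor of IL-33, had a log2FC of -0.16 (limma adjusted p = 0.42). Gata3, the transcription factor of type 2 lymphocytes that epithelial cells also express, fell from a median of 8.72 to 4.78 CPM without overlap (log2FC -1.20). The PBS libraries X1, X21 and X41 were at 12.98 to 19.3 CPM and the other PBS libraries at 8.16 to 9.58 CPM. The part of those high PBS libraries in the call was not tested. In all, 6 of 15 tested genes rose and 2 fell (median log2FC 0.73).

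Genes of alternatively activated macrophages and the chitinase-like proteins held some of the largest changes at high levels. Retnla, which encodes the secreted protein FIZZ1 (RELM-alpha), was 995 to 6452 CPM (median 2850.1) in HDM airways and 99.3 to 509 CPM (median 193.4) in PBS airways (log2FC 3.82, SE 0.38, limma adjusted p = 7.3e-12). The lowest HDM library was above the highest PBS library. Arg1, the arginase that competes with nitric oxide synthase for arginine, was 17.9 to 323 CPM (median 114.1) in HDM airways and 1.71 to 7.24 CPM (median 2.51) in PBS airways (log2FC 5.08, SE 0.55, limma adjusted p = 7.4e-11), also without overlap. Chil3 (Ym1) was 241 to 10643 CPM (median 3282) in HDM airways and 76.1 to 421 CPM (median 220.2) in PBS airways (log2FC 3.83, SE 0.43, limma adjusted p = 2.3e-10), and X63 was the 1 HDM library within the PBS range. Chil4 (Ym2) had the largest log2FC of all genes tested in limma (log2FC 8.69, SE 2.50, limma adjusted p = 0.002), although 2 HDM libraries lay inside the PBS range. With DESeq2 or edgeR Sprr2a2 and Sprr2a3 were above it, and its call was lost at a filter of 10 CPM (limma adjusted p = 0.071). Reads may be shared between Chil3 and Chil4, which are close copies. Of the list 10 of 14 tested genes rose and 0 fell (median log2FC 2.53).

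Most tested eosinophil genes rose, and those named here stood at low levels. Ccr3, the eotaxin receptor, was 6.69 to 25.2 CPM (median 13.8) in HDM airways and 0.663 to 2.98 CPM (median 1.14) in PBS airways (log2FC 3.40, SE 0.33, limma adjusted p = 4.3e-12), without overlap. Siglecf, found on eosinophils and alveolar macrophages, was 5.05 to 43.8 CPM (median 23.2) in HDM airways and 2.399 to 18.3 CPM (median 7.77) in PBS airways (log2FC 1.73, SE 0.30, limma adjusted p = 3.1e-06), with X63 and 1 further HDM library inside the PBS range. Epx, the eosinophil peroxidase, did not pass the filter, with 65 counts over the HDM libraries and 1 over the PBS libraries. Prg3 and Ear10 of the same list did not pass it either. Prg3 held 250 counts over the PBS libraries and fewer over the HDM libraries, with medians of 3 per PBS and 5 per HDM library. Ear10 held 10 counts over the HDM libraries and 6 over the PBS libraries. Of the eosinophil list 5 of 8 tested genes rose and 0 fell (median log2FC 1.45). Those 8 genes summed to 101.2 to 358 CPM (median 212) in HDM airways and 54.2 to 267 CPM (median 121.7) in PBS airways. These sums overlapped between the groups. The mast cell and basophil list had 2 genes up and 2 down of 13 tested (median log2FC -0.29). At the adjusted p alone 3 were higher and 4 lower. The list summed to 142.5 to 225 CPM (median 169.1) in HDM airways and 188.3 to 246 CPM (median 221) in PBS airways. Mcpt1, a mucosal mast cell protease with the largest change of the list, was at a median of 7.89 CPM in HDM and 0.2601 CPM in PBS airways (log2FC 4.40).

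Chemokines rose broadly, and 26 of 35 tested genes rose and 1 fell (median log2FC 2.22). Ccl8, a ligand that attracts monocytes and T helper cells, was 241 to 519 CPM (median 355) in HDM airways and 9.06 to 107.96 CPM (median 15.2) in PBS airways (log2FC 4.09, SE 0.28, limma adjusted p = 2.4e-16). Cxcl9, which is induced by interferon-gamma and attracts CXCR3-bearing T cells, was 49.005 to 534 CPM (median 223) in HDM airways and 1.77 to 24.3 CPM (median 3.68) in PBS airways (log2FC 5.31, SE 0.50, limma adjusted p = 1.7e-12). For both, every HDM library exceeded every PBS library. Cxcl5, a neutrophil attractant of epithelial cells, was 64.9 to 116.5 CPM (median 101.6) in HDM airways and 1.62 to 22.7 CPM (median 4.24) in PBS airways (log2FC 4.05). Cxcl13, which guides B cells into follicles, was 132.7 to 507 CPM (median 208) in HDM airways and 7.67 to 124.8 CPM (median 12.2) in PBS airways (log2FC 3.24), and both were without overlap.

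The eotaxins and the CCR4 ligand did not move alike. Ccl17, which attracts type 2 T cells, was 15.4 to 152.8 CPM (median 33.7) in HDM airways and 4.22 to 11.8 CPM (median 5.97) in PBS airways (log2FC 2.54, SE 0.41, limma adjusted p = 7.1e-07), without overlap. Ccl11, eotaxin-1, was 6.12 to 83.2 CPM (median 41.9) in HDM airways and 12.1 to 48.96 CPM (median 18.6) in PBS airways and did not pass the test (log2FC 0.57, SE 0.34, limma adjusted p = 0.12). Ccl24, eotaxin-2, was 1.32 to 31.4 CPM (median 8.61) in HDM airways and 1.04 to 6.42 CPM (median 3.99) in PBS airways and lay at the limit of the call (log2FC 1.18, limma adjusted p = 0.050), with 7 HDM libraries above all PBS libraries. Its call was lost in 15 of the 21 fits that left out 1 library and at a filter of 10 CPM (limma adjusted p = 0.14). Of the chemokine receptors 15 of 22 tested genes rose and 2 fell (median log2FC 1.52).

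Neutrophil genes and Il17a were higher in HDM airways. Il17a, the cytokine of T helper 17 and gamma-delta T cells that promotes neutrophil recruitment, was 5.404 to 15.7 CPM (median 13.2) in HDM airways and 0.141 to 5.29 CPM (median 0.57001) in PBS airways (log2FC 4.06, SE 0.42, limma adjusted p = 1.9e-11). The highest PBS value was that of X21, just below the lowest HDM library. S100a8, a calprotectin subunit of neutrophils, was 118.6 to 362 CPM (median 215) in HDM airways and 10.7 to 73.6 CPM (median 48.03) in PBS airways (log2FC 2.36, SE 0.24, limma adjusted p = 1.4e-11), without overlap. Lcn2, lipocalin-2, which binds bacterial siderophores, was 1423 to 3719.6 CPM (median 1975) in HDM airways and 124.02 to 373 CPM (median 168.9) in PBS airways (log2FC 3.37). Of the neutrophil and alarmin list 15 of 16 tested genes rose and 0 fell (median log2FC 2.31), with summed levels of 3389 to 7821 CPM (median 3941) in HDM airways and 802 to 1721 CPM (median 1033) in PBS airways.

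Macrophage and innate recognition genes were higher in every HDM library for many members. Clec7a, the receptor dectin-1 for fungal glucans, was 143.3 to 1529 CPM (median 993) in HDM airways and 48.6 to 140.2 CPM (median 103.6) in PBS airways (log2FC 3.06, SE 0.24, limma adjusted p = 8.8e-15), and X63 was the lowest HDM library by a wide margin. Clec4e, the receptor Mincle, was 50.9 to 242 CPM (median 125.8) in HDM airways and 3.68 to 11.5 CPM (median 6.63) in PBS airways (log2FC 4.19, SE 0.29, limma adjusted p = 4.4e-16). Il1b was 57.1 to 245 CPM (median 163.5) in HDM airways and 12.6 to 35.5 CPM (median 19.1) in PBS airways (log2FC 2.82), and its natural antagonist Il1rn was 69.5 to 448 CPM (median 275) in HDM airways and 9.07 to 21.3 CPM (median 14.1) in PBS airways (log2FC 4.10). None of these overlapped. Of the innate recognition and IL-1 list 20 of 28 tested genes rose and 1 fell (median log2FC 1.97), and of the macrophage list 15 of 24 tested genes rose and 3 fell (median log2FC 1.30). Msr1, a scavenger receptor, had the largest change of the macrophage list (log2FC 3.33), whereas Lyz2, lysozyme of macrophages and type II cells, had a log2FC of 1.13 from far higher levels, with a median of 10666 CPM in HDM and 6059 CPM in PBS airways.

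The transcription factor Spi1 (PU.1), a regulator of myeloid differentiation, was 45.6 to 104.8 CPM (median 73.1) in HDM airways and 10.4 to 29.96 CPM (median 17.9) in PBS airways (log2FC 1.98, SE 0.17, limma adjusted p = 5.7e-14), and the groups did not overlap. The Spi1 list holds Spi1, regulators that the study named with it, and Il1rn, Ptafr, Itgax and Clec7a. The study picked those last genes as downstream of SPI1 for their high log2FC in these mice, so their rise was fixed by that choice. The whole list was chosen by the study on these samples and is not independent evidence of its direction. Of this list 7 of 9 tested genes rose and 0 fell (median log2FC 1.98). Itgax (log2FC 2.83), Ptafr (3.05), Tfec (1.94) and Elf4 (1.37) rose, Mtf1 had a log2FC of 0.47 and stayed under the limit on log2FC, and Hlx had -0.06 (limma adjusted p = 0.76). The summed level of the list was 442 to 2855 CPM (median 2038) in HDM airways and 176.9 to 293 CPM (median 261) in PBS airways, and X63 was again the lowest HDM library, at 442 CPM against 919 for the next.

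Nitric oxide, complement and acute phase genes were part of the innate change. Nos2, the inducible nitric oxide synthase, was 14.7 to 311 CPM (median 112.4) in HDM airways and 1.003 to 6.896 CPM (median 2.23) in PBS airways (log2FC 5.15, SE 0.62, limma adjusted p = 1.0e-09), without overlap. Saa3, an acute phase protein made locally in the lung, was 401 to 1085 CPM (median 771) in HDM airways and 13.1 to 169.5 CPM (median 40.6) in PBS airways (log2FC 4.13, SE 0.32, limma adjusted p = 5.2e-15), and Cfb, complement factor B, was 549 to 1377 CPM (median 789.7) in HDM airways and 87.1 to 321 CPM (median 134.4) in PBS airways (log2FC 2.52, SE 0.22, limma adjusted p = 1.4e-13). Both separated the groups. Of the complement list 9 of 20 tested genes rose and 1 fell (median log2FC 0.63), of the acute phase and IL-6 list 9 of 15 tested genes rose and 0 fell (median log2FC 1.46), and of the arginine and nitric oxide list 5 of 10 tested genes rose and 1 fell (median log2FC 1.08). Among lipid mediator genes 12 of 29 tested genes rose and 3 fell (median log2FC 0.49), with a rise of Ptafr, the receptor of platelet-activating factor, and a fall of Hpgd, the enzyme that inactivates prostaglandins, from a median of 317 to 33.5 CPM (log2FC -2.83).

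**Figure D4:**
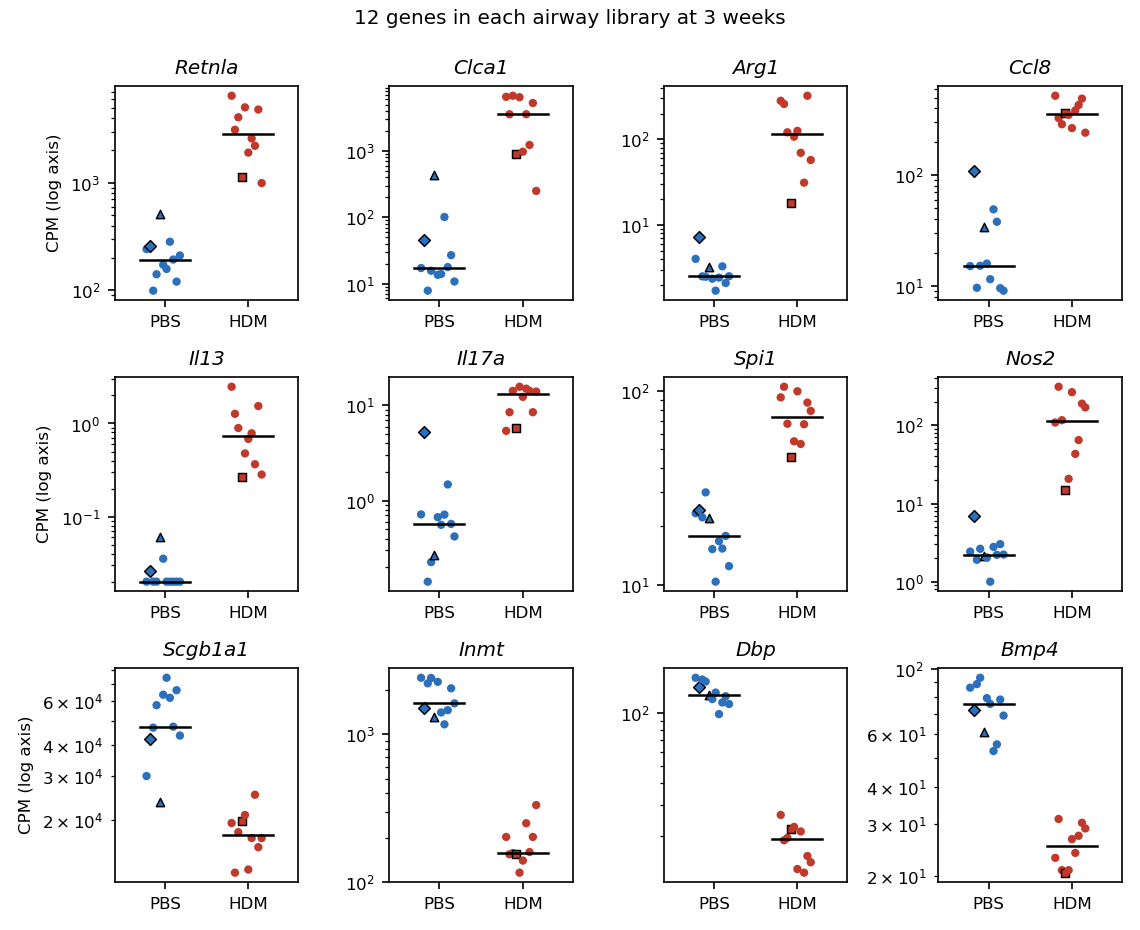
CPM (log axis, scaled for each gene) of 12 genes in each PBS (blue) and HDM (red) airway library at 3 weeks, with the group median as a line. The square is X63, the triangle X81, the diamond X21, and Il13 values of 0 are drawn at the bottom of its axis. Retnla, Arg1, Ccl8, Il13, Il17a, Spi1 and Nos2 are higher in every HDM library than in every PBS library, and Inmt, Dbp and Bmp4 are lower in every one.

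Genes of antigen presentation rose, Ciita among them. Ciita, the coactivator that switches on MHC class II genes, was 44.9 to 138.2 CPM (median 91.6) in HDM airways and 9.71 to 24.9 CPM (median 11.9) in PBS airways (log2FC 2.73, SE 0.16, limma adjusted p = 4.1e-18), and Cd74, the invariant chain that chaperones MHC class II, was 1490.4 to 4507 CPM (median 2821) in HDM airways and 453 to 1109 CPM (median 670.04) in PBS airways (log2FC 2.00, SE 0.16, limma adjusted p = 2.3e-14). Neither overlapped between the groups. Of the dendritic cell and MHC class II list 17 of 22 tested genes rose and 0 fell (median log2FC 1.46), and the summed level was 3873 to 9571 CPM (median 6578) in HDM airways and 1241 to 2993 CPM (median 1931) in PBS airways.

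Most T cell genes rose, while 10 of 11 cytotoxic genes were not called. Cd4, the helper coreceptor, was 33.2 to 75.6 CPM (median 57.8) in HDM airways and 5.202 to 30.1 CPM (median 8.1001) in PBS airways (log2FC 2.36, SE 0.23, limma adjusted p = 2.7e-12). Il21, the cytokine of follicular helper T cells, was 6.09 to 9.77 CPM (median 7.88) in HDM airways and 0 to 0.889 CPM (median 0.111) in PBS airways (log2FC 6.18, SE 0.45, limma adjusted p = 8.3e-16), and Pdcd1, the receptor PD-1 of activated T cells, was 13.1 to 26.8 CPM (median 19.2) in HDM airways and 0.42001 to 3.37 CPM (median 0.98998) in PBS airways (log2FC 3.91). Foxp3, the factor of regulatory T cells, was 1.35 to 3.45 CPM (median 2.196) in HDM airways and 0.300004 to 3.14 CPM (median 0.6795) in PBS airways and overlapped in 8 HDM libraries (log2FC 1.42, SE 0.28, limma adjusted p = 2.5e-05). Ifng, the type 1 cytokine, rose as well, from a median of 0.494 to 3.45 CPM without overlap (log2FC 2.77). Of the T cell list 22 of 28 tested genes rose and 0 fell (median log2FC 1.59). In the cytotoxic list 1 of 11 tested genes rose and 0 fell (median log2FC 0.23), and the 1 call, Gzmb (1.03), was at the limit and was lost in 6 of the 21 fits that left out 1 library (0.93 to 0.99), with edgeR, with sample quality weights and with the block of library codes.

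B cell and antibody genes rose, with large differences among the PBS libraries. Ighm, the constant gene of IgM, was 990.1 to 2703 CPM (median 1422) in HDM airways and 72.97 to 749 CPM (median 252) in PBS airways (log2FC 2.49), and Igha, of IgA, was 687 to 2634 CPM (median 1574) in HDM airways and 67.95 to 1248 CPM (median 196.7) in PBS airways (log2FC 2.94). Ighg1, of IgG1, was 599 to 2274 CPM (median 1273) in HDM airways and 30.99 to 4273 CPM (median 106.7) in PBS airways, and no HDM library exceeded X21, the highest PBS library, while the next highest PBS library was at 1089 CPM. Its log2FC was 2.65 (SE 0.64, limma adjusted p = 2.9e-04), and it was not called by DESeq2 (1.05, adjusted p = 0.084) or edgeR (1.04, adjusted p = 0.11).

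Of the B cell and plasma cell list 13 of 19 tested genes rose and 0 fell (median log2FC 1.66), and all 19 genes were higher at the adjusted p alone. Of the immunoglobulin constant list 7 of 9 tested genes rose and 0 fell (median log2FC 2.65), and 9 rose without X81. The list summed to 3554 to 12411 CPM (median 6595) in HDM airways and 359 to 9265 CPM (median 917) in PBS airways. Jchain, which joins IgA and IgM into polymers, had a log2FC of 2.51, with 1 HDM library above X21. Ighe, of IgE, did not pass the filter, with 0 to 33 counts (median 11) per HDM library and 0 to 8 counts (median 1) per PBS library. Immunoglobulin genes are close copies of each other, so how reads were split among them is uncertain.

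Genes of the interferon response, which are switched on after type I or type II interferon, rose as a group. Zbp1, a sensor of Z-form nucleic acids, was 55.2 to 161.7 CPM (median 84.1) in HDM airways and 8.82 to 24.2 CPM (median 12.8) in PBS airways (log2FC 2.61), and Rsad2 (viperin) was 8.32 to 79.6 CPM (median 32.3) in HDM airways and 3.17 to 7.71 CPM (median 4.49) in PBS airways (log2FC 2.52, SE 0.35, limma adjusted p = 3.2e-08). Both separated the groups. Isg15, a ubiquitin-like modifier, was 29.3 to 149.2 CPM (median 56.3) in HDM airways and 15.3 to 32.96 CPM (median 18.5) in PBS airways (log2FC 1.54, SE 0.22, limma adjusted p = 3.2e-08), with 1 HDM library inside the PBS range. Ido1, a tryptophan-degrading enzyme, had the largest change of the list (log2FC 3.27). In all, 16 of 21 tested genes rose and 0 fell (median log2FC 1.30), and leaving out 1 airway library at a time left 13 to 16 called.

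The promoters of these genes were read for the interferon-stimulated response element, searched as GAAANNGAAA on both strands in the 250 bases before the RefSeq start site. It was found in 8 of the 14 list genes that matched a RefSeq promoter (Ifit1, Ifit3, Isg15, Oas1a, Rsad2, Stat2, Gbp2 and Gbp3) and in 3.46% of 27025 genes. The gamma-activated site, searched as TTCNNNGAA, was found in 2 of 14, against 8.13% of all genes. A match is a description of letters and not a site of binding. Isg15 and Rsad2 are shown because both rose and carry the element, in RefSeq sequence of GRCm38.p6 with the matches in capitals.
Isg15 (chr4:156200819-156201068, minus strand): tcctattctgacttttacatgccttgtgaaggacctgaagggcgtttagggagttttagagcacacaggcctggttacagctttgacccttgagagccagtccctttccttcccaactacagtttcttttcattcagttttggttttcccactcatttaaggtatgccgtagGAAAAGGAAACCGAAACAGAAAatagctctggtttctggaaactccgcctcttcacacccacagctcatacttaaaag
Rsad2 (chr12:26456453-26456702, minus strand): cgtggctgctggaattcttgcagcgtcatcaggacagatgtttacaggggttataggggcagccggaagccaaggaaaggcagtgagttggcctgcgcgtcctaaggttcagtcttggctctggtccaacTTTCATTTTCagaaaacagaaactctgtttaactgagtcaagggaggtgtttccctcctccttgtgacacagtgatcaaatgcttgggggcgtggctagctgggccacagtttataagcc
The Isg15 window holds 3 overlapping matches, which begin 78, 72 and 66 bases before the start site, and the Rsad2 window holds 1 match on the other strand, 120 bases before it.

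The same search was made for the other lists. The STAT6 letters TTCNNNNGAA were found in 4 of 10 matched genes of the alternatively activated macrophage list (Retnla, Ccl17, Pdcd1lg2 and Cd209e) and in 6.76% of all genes. The Retnla promoter is shown because that gene rose without overlap and carries 1 match, in capitals.
Retnla (chr16:48842359-48842608, plus strand): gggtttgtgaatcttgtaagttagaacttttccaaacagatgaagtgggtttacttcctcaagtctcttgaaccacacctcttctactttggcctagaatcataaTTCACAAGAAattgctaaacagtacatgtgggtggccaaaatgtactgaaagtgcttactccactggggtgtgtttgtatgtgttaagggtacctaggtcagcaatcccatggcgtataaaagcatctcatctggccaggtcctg
The kappaB letters GGGNNNTTCC were found in 7 of 26 chemokine genes and 5.31% of all genes. The SPI1 letters GAGGAAGT were found in 0 of 8 genes of the Spi1 list and 2.79% of all genes. That list mixes regulators with genes the study called downstream of SPI1. With so few genes a count of 0 cannot be told apart from the share of all genes. The E2F letters TTTCCCGC were found in 1 of 27 cell cycle genes (1.03% of all), the CHR letters TTTGAA in 9 of 27 (18.3%) and the AHR letters GCGTG in 8 of 21 xenobiotic genes (30.9%). In all 11 pairs of a motif and a list were searched.

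Many goblet cell genes rose. Clca1, a secreted protein of goblet cells, was 249.7 to 6781 CPM (median 3569) in HDM airways and 7.85 to 435 CPM (median 17.2) in PBS airways (log2FC 6.46, SE 0.66, limma adjusted p = 1.8e-11), and the PBS library X81 overlapped the lowest HDM library. Muc5ac, the inducible gel-forming mucin, was 25.9 to 559 CPM (median 255) in HDM airways and 4.19 to 31.03 CPM (median 7.74) in PBS airways (log2FC 4.39, SE 0.42, limma adjusted p = 3.3e-12), with the same pair of ranges meeting at X81. Muc5b, the mucin made at baseline, was 166.3 to 566 CPM (median 318) in HDM airways and 106.7 to 399.9 CPM (median 222) in PBS airways and did not pass the test (log2FC 0.44, SE 0.26, limma adjusted p = 0.13). Spdef, a transcription factor of goblet cells, had a log2FC of 0.86 (limma adjusted p = 0.0019) and stayed under the limit, but passed it with DESeq2 (1.06), with edgeR (1.04) and without X183 (1.04). Slc26a4 (pendrin), an anion exchanger induced by IL-13 and IL-17, was 17.5 to 275 CPM (median 107.3) in HDM airways and 4.24 to 16.98 CPM (median 4.55) in PBS airways (log2FC 4.07, SE 0.39, limma adjusted p = 2.0e-12), without overlap. Of the goblet and mucus list 14 of 19 tested genes rose and 0 fell (median log2FC 1.62).

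Club cell genes fell while remaining abundant. Scgb1a1, the club cell secretory protein, was 12247 to 25203 CPM (median 17349) in HDM airways and 23478 to 74468 CPM (median 47347) in PBS airways (log2FC -1.47, SE 0.18, limma adjusted p = 7.7e-10), and 9 HDM libraries were below all PBS libraries. Scgb3a2, a related secretoglobin, was 232 to 2834 CPM (median 704) in HDM airways and 2488 to 5172 CPM (median 3327) in PBS airways (log2FC -2.31, SE 0.32, limma adjusted p = 2.4e-08), with X63 as the HDM library inside the PBS range. Scgb3a1 was 833 to 9363 CPM (median 1574) in HDM airways and 1579 to 4662 CPM (median 2756) in PBS airways and did not pass the test (log2FC -0.43, limma adjusted p = 0.28). Of the club cell list 0 of 12 tested genes rose and 9 fell (median log2FC -1.49). Ciliated cell genes were lower by less, and 0 of 20 tested genes rose and 4 fell (median log2FC -0.65), although 18 of 20 were lower at the adjusted p alone. Foxj1, the master factor of motile cilia, was 82.3 to 336 CPM (median 158.7) in HDM airways and 97.9 to 227 CPM (median 141.7) in PBS airways (log2FC 0.03, limma adjusted p = 0.89), while Tppp3, a microtubule protein of ciliated cells, was 142.6 to 462 CPM (median 212) in HDM airways and 474 to 698 CPM (median 519) in PBS airways (log2FC -1.23, SE 0.15, limma adjusted p = 1.3e-09). The called number was 1 with DESeq2 or edgeR, 6 without X63 and 8 without the 3 libraries.

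Xenobiotic metabolism, a main function of club cells, fell broadly, and 0 of 27 tested genes rose and 20 fell (median log2FC -1.50). Cyp2f2, a cytochrome P450 of club cells, was 369 to 1288 CPM (median 639.7) in HDM airways and 2399 to 5117 CPM (median 3535) in PBS airways (log2FC -2.44, SE 0.19, limma adjusted p = 9.4e-15). Aldh1a1, a retinaldehyde dehydrogenase, was 429 to 1726 CPM (median 863) in HDM airways and 1839 to 2959.6 CPM (median 2420.2) in PBS airways (log2FC -1.50). Cyp1a1, the classical target of the aryl hydrocarbon receptor, was 0.0719 to 0.383 CPM (median 0.221) in HDM airways and 2.898 to 25.9 CPM (median 6.001) in PBS airways (log2FC -4.74, SE 0.57, limma adjusted p = 1.0e-09). In all 3 genes every HDM library was below every PBS library. The summed level of the list was 2052 to 6176 CPM (median 3128) in HDM airways and 8946 to 14717 CPM (median 11344) in PBS airways, the highest HDM library being X63.

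Squamous and ion transport genes gave mixed counts. Of 26 basal and squamous epithelium genes 12 passed the filter, and 6 of 12 tested genes rose and 2 fell (median log2FC 0.76), while with DESeq2 or edgeR 5 rose and 0 fell. Sprr2a2, a cornified envelope precursor, was 5.02 to 345 CPM (median 125.6) in HDM airways and 0 to 5.66 CPM (median 0.199) in PBS airways (log2FC 8.31, SE 2.42, limma adjusted p = 0.0022), and Sprr2a2 and Sprr2a3 are near-identical copies that may share reads. Of the airway ion transport list 2 of 13 tested genes rose and 3 fell (median log2FC 0.00), and Cftr, the chloride channel, was 16.4 to 58.8 CPM (median 38.9) in HDM airways and 8.26 to 33.9 CPM (median 23.3) in PBS airways with a log2FC of 0.77 (limma adjusted p = 1.8e-04), under the limit.

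Genes of alveolar cells were measured in the same samples. Of the alveolar type I list 0 of 10 tested genes rose and 3 fell (median log2FC -0.82), with Hopx, a homeodomain cofactor of type I cells, at a log2FC of -1.52. Of the alveolar type II list 1 of 12 tested genes rose and 0 fell (median log2FC 0.12). Sftpd, a collectin that binds microbes, was 991 to 2623 CPM (median 1777) in HDM airways and 421 to 1144 CPM (median 856) in PBS airways (log2FC 1.09, SE 0.14, limma adjusted p = 7.7e-09), and without X81 its log2FC was 0.99. Sftpc, the surfactant protein of type II cells, was 1332 to 10514 CPM (median 5381) in HDM airways and 2901 to 14562 CPM (median 11374) in PBS airways (log2FC -0.74, limma adjusted p = 0.0081), under the limit. With the 21 airway libraries alone its log2FC was -0.68 (limma adjusted p = 0.072). The summed type II level was 4784 to 24107 CPM (median 15036) in HDM airways and 6088 to 24628 CPM (median 21114) in PBS airways, so the amount of alveolar RNA varied several-fold within each group, and its part in the other results was not tested.

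Fibroblast genes fell deeply, and 0 of 16 tested genes rose and 12 fell (median log2FC -1.54). Inmt, a methyltransferase of lung fibroblasts, was 116.3 to 333 CPM (median 158.998) in HDM airways and 1170.2 to 2416 CPM (median 1622) in PBS airways (log2FC -3.29, SE 0.17, limma adjusted p = 3.4e-20). Itga8, the integrin alpha-8 chain of alveolar fibroblasts and myofibroblasts, was 20.5 to 39.7 CPM (median 27.9) in HDM airways and 130.4 to 279.5 CPM (median 205) in PBS airways (log2FC -2.83, SE 0.14, limma adjusted p = 1.6e-20). Pcolce2, which assists procollagen processing, was 13.2 to 26.6 CPM (median 16.7) in HDM airways and 111.5 to 200.05 CPM (median 155.2) in PBS airways (log2FC -3.15, SE 0.12, limma adjusted p = 2.8e-24). The highest HDM library was below the lowest PBS library in each. The list summed to 807 to 1249 CPM (median 948) in HDM airways and 3172 to 4782 CPM (median 4087) in PBS airways.

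Matrix and remodelling genes did not share the direction of the fibroblast list, and 10 of 33 tested genes rose and 4 fell (median log2FC 0.47). Mmp12, the macrophage elastase, was 195.6 to 3128 CPM (median 1476) in HDM airways and 18.7 to 112.2 CPM (median 37.3) in PBS airways (log2FC 4.87, SE 0.30, limma adjusted p = 1.1e-17), and Timp1, an inhibitor of metalloproteinases, was 97.01 to 422 CPM (median 188.7) in HDM airways and 6.97 to 45.2 CPM (median 10.1) in PBS airways (log2FC 3.74, SE 0.26, limma adjusted p = 3.1e-16). Both were without overlap. Col1a1, the main fibrillar collagen, was 73.7 to 175.6 CPM (median 140.8) in HDM airways and 52.96 to 245 CPM (median 95.9) in PBS airways (log2FC 0.50, limma adjusted p = 0.041), under the limit. With the 21 airway libraries alone its log2FC was 0.56 (limma adjusted p = 0.06). Postn (periostin), a matrix protein induced by IL-13 in other settings, had a log2FC of -0.26, and Tnc (tenascin-C) one of 0.89, both also under the limit on log2FC. Tnc passed the limit without the 3 libraries that stood apart (1.15) and with sample quality weights (1.17).

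Growth factor signalling fell more often than it rose. In the BMP and TGF-beta list 4 of 25 tested genes rose and 12 fell (median log2FC -0.92), and in the Wnt list 0 of 33 tested genes rose and 12 fell (median log2FC -0.86). Bmp4, a ligand of lung development and homeostasis, was 20.5 to 31.1 CPM (median 25.3) in HDM airways and 52.7 to 93.1 CPM (median 75.99) in PBS airways (log2FC -1.54, SE 0.09, limma adjusted p = 3.6e-18), and its receptor gene Bmpr2 was 141.6 to 272 CPM (median 189.1) in HDM airways and 296 to 845 CPM (median 553) in PBS airways (log2FC -1.55). Inhba, the subunit of activin A, moved the other way and was 6.63 to 69.8 CPM (median 36.3) in HDM airways and 0.389 to 2.63 CPM (median 0.744) in PBS airways (log2FC 4.98, SE 0.56, limma adjusted p = 1.5e-10). Wnt10b had the largest change of the Wnt list (log2FC -2.44), from a median of 9.95 CPM in PBS to 1.401 CPM in HDM airways. Endothelial genes fell in 8 of 21 cases and rose in 3. Tek, the receptor of angiopoietins, was 29.3 to 84.3 CPM (median 45.6) in HDM airways and 105.97 to 291 CPM (median 201.3) in PBS airways (log2FC -1.98, SE 0.16, limma adjusted p = 3.2e-14), and Ednrb, an endothelin receptor, had a log2FC of -2.15.

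Muscle and fat genes, which mark tissue beside the airway epithelium, were lower in HDM airways at levels that varied widely within both groups. Of the cardiac muscle list 0 of 22 tested genes rose and 21 fell (median log2FC -2.52). Cardiac muscle is found in the heart and, in the mouse, in the wall of pulmonary veins. Myl7, the atrial myosin light chain, was 2.67 to 132.6 CPM (median 24.1) in HDM airways and 55.8 to 924 CPM (median 130.5) in PBS airways (log2FC -3.09, SE 0.49, limma adjusted p = 3.7e-07), and Nppa, the atrial natriuretic peptide, was 0.157 to 177.01 CPM (median 8.02) in HDM airways and 10.9 to 553 CPM (median 24.4) in PBS airways (log2FC -3.30, SE 0.84, limma adjusted p = 5.6e-04). Nppa was not called by DESeq2 (-1.89, adjusted p = 0.089). Myh6 had a log2FC of -2.26, and all 3 genes overlapped between the groups. The list summed to 92.4 to 1427 CPM (median 355) in HDM airways and 512 to 7238 CPM (median 1112) in PBS airways, and to 86.99 to 146.3 CPM in PBS parenchyma. Of the adipose list 0 of 10 tested genes rose and 9 fell (median log2FC -2.14) and 6 fell with DESeq2 or edgeR, with summed levels of 22.1 to 545 CPM (median 54.8) in HDM airways and 131.6 to 971 CPM (median 358) in PBS airways. The part of adjoining tissue in these falls was not tested.

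Most smooth muscle genes overlapped between the groups as well, and 1 of 17 tested genes was below every PBS library in every HDM library (9.99% of all genes). Of that list 0 of 17 tested genes rose and 3 fell (median log2FC -0.78), and 7 fell without X63, the HDM library with the highest level (2784 CPM, next 1898). At the adjusted p alone 11 of the 17 were lower and 0 higher. Acta2, the smooth muscle actin, was 44.3 to 417 CPM (median 123.2) in HDM airways and 56.5 to 589 CPM (median 157.4) in PBS airways (log2FC -0.55, limma adjusted p = 0.14). Chrm2, a muscarinic receptor, was 2.104 to 37.5 CPM (median 8.64) in HDM airways and 11.9 to 67.2 CPM (median 22.6) in PBS airways (log2FC -1.72, SE 0.34, limma adjusted p = 2.4e-05), while Chrm3, the receptor that mediates contraction, had a log2FC of -0.65. Among lists of other tissues, 3 of 10 cartilage genes fell (0 with DESeq2, 1 with edgeR), 1 of 9 skeletal muscle genes rose and 3 fell (1 fell with either), and 1 of 8 Schwann cell genes rose and 2 fell (1 fell with either). The thyroid list had 2 up and 2 down of 5, and the thymus list, which shares T cell genes, 3 up of 4.

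Of the genes of proliferation in the cell cycle list 26 of 31 tested genes rose and 0 fell (median log2FC 1.79), with all 31 higher at the adjusted p alone. Top2a, the topoisomerase of dividing cells, was 52.8 to 105.05 CPM (median 81.4) in HDM airways and 8.51 to 27.9 CPM (median 12.4) in PBS airways (log2FC 2.56, SE 0.15, limma adjusted p = 1.5e-18), and Mki67, the proliferation marker Ki-67, was 77.4 to 184.05 CPM (median 135.03) in HDM airways and 16.1 to 48.99 CPM (median 27.3) in PBS airways (log2FC 2.26, SE 0.14, limma adjusted p = 8.2e-18). Neither overlapped. Glycolysis genes were all higher at the adjusted p alone, and 7 of 19 tested genes rose and 0 fell (median log2FC 0.80). Hk3, a hexokinase of myeloid cells, led the list (log2FC 2.30), and Hif1a, the hypoxia-inducible factor that drives glycolytic genes, was 161.7 to 356 CPM (median 236) in HDM airways and 76.2 to 103.6 CPM (median 88.6) in PBS airways (log2FC 1.44). Of the fatty acid oxidation list 0 of 16 tested genes rose and 4 fell (median log2FC -0.49), with Fabp3, a fatty acid carrier of muscle, at a log2FC of -2.76.

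Clock genes were called in both directions. Dbp, a clock output factor that binds D-box elements, was 12.3 to 26.2 CPM (median 19.1) in HDM airways and 98.1 to 157.9 CPM (median 125.4) in PBS airways (log2FC -2.85, SE 0.14, limma adjusted p = 6.4e-21). Nr1d1 (REV-ERB alpha), the repressor of Arntl and Nfil3, was 11.2 to 19.1 CPM (median 15.3) in HDM airways and 70.2 to 116.2 CPM (median 83.01) in PBS airways (log2FC -2.50, SE 0.14, limma adjusted p = 2.1e-19), and Per3 was 19.8 to 36.98 CPM (median 26.9) in HDM airways and 51.3 to 101.8 CPM (median 82.6) in PBS airways (log2FC -1.48). Nfil3 was 13.5 to 25.4 CPM (median 17.6) in HDM airways and 3.25 to 6.78 CPM (median 3.83) in PBS airways (log2FC 2.09, SE 0.14, limma adjusted p = 1.2e-16), and Arntl (BMAL1), the activator of the clock, was 10.8 to 15.7 CPM (median 11.8) in HDM airways and 3.77 to 9.56 CPM (median 5.57) in PBS airways (log2FC 1.01, SE 0.12, limma adjusted p = 6.1e-10). All 5 genes separated the groups, the first 3 downward and the last pair upward. The rise of Arntl lay at the limit on log2FC, and its call was lost in 7 of the 21 fits that left out 1 library (0.94 to 0.99), with edgeR (0.98), with the block of library codes (0.94) and at a filter of 10 CPM (0.99). Of the circadian list 3 of 17 tested genes rose and 8 fell (median log2FC -0.85), and leaving out 1 library at a time left 1 to 3 of the rises. The time of day of dissection is not given in the sources used here.

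The E-box, CACGTG, was found in 5 of 15 matched clock genes (Per1, Cry1, Tef, Ciart and Bhlhe41) and 6.86% of all genes, the D-box, TTATGNAA, in 2 of 15 (3.63%) and the ROR letters AGGTCA in 4 of 15 (15.8%). The Ciart promoter is shown because it holds 3 E-boxes, in capitals, the nearest of which begin 58 and 44 bases before the start site.
Ciart (chr3:95882229-95882478, minus strand): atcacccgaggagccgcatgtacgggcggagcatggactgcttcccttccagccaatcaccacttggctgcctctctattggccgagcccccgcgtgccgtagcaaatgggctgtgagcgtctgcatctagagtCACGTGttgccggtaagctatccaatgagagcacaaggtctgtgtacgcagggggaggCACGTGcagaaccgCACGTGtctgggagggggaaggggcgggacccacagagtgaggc

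The genes with the largest log2FC among those that reached a group mean of 5 CPM and did not overlap between the groups included several outside the lists. Gm15056 (ENSMUSG00000082976.5, chr8:20900606-20902627), a defensin-like gene, was 55.8 to 104.9 CPM (median 75.7) in HDM airways and 0.0755 to 2.47 CPM (median 0.372) in PBS airways (log2FC 7.20, SE 0.46, limma adjusted p = 2.6e-17). Cbln1 (ENSMUSG00000031654.11, chr8:87468405-87472609), a secreted cerebellin, was 1.21 to 16.7 CPM (median 10.5) in HDM airways and 0 to 0.181 CPM (median 0.0658) in PBS airways (log2FC 6.94, SE 0.92, limma adjusted p = 1.0e-08), with X63 as the lowest HDM library. Sprr2a3 (ENSMUSG00000074445.4, chr3:92285417-92291405) was 3.96 to 279 CPM (median 95.3) in HDM airways and 0 to 3.65 CPM (median 0.159) in PBS airways (log2FC 7.96, SE 2.36, limma adjusted p = 0.0026). Il21, Gm20056, Ighv2-6 and Ighv2-9-1 were also among the 8 largest rises in that ranking. Gm20056 is a processed pseudogene whose reads may belong to its parent gene (log2FC 6.11).

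The 8 largest falls by the same rule were those of Inmt, Pcolce2 and Cyp1a1, given above, and of 5 genes outside the lists. Pcdha4 (ENSMUSG00000104252.1, chr18:36952648-37187661), a clustered protocadherin that shares its constant exons with its neighbours, was 0.0958 to 0.269 CPM (median 0.127) in HDM airways and 1.96 to 23.3 CPM (median 9.45) in PBS airways (log2FC -5.66, SE 0.90, limma adjusted p = 4.1e-07). In a separate fit of airway libraries at 3 and 11 weeks, its median in PBS airways was 9.78 CPM at 3 weeks and 0.7601 CPM at 11 weeks. Asgr1 (ENSMUSG00000020884.11, chr11:70054085-70057894), a lectin best known from liver, was 0.0652 to 1.0997 CPM (median 0.324) in HDM airways and 3.62 to 15.98 CPM (median 9.51) in PBS airways (log2FC -4.72, SE 0.38, limma adjusted p = 2.7e-14). Gria1 (ENSMUSG00000020524.12, chr11:57011387-57330244), a glutamate receptor subunit, was 0.228 to 1.53 CPM (median 0.661) in HDM airways and 4.303 to 10.5 CPM (median 7.44) in PBS airways (log2FC -3.52, SE 0.24, limma adjusted p = 9.6e-17). Tmem35a (ENSMUSG00000033578.7, chrX:134295225-134305969) and Tbata (ENSMUSG00000020096.15, chr10:61171954-61188841) fell by 3.29 and 3.20 on the log2 scale. Every HDM library lay below every PBS library for each of the 5 genes.

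The HDM effect in airways was set beside that in parenchyma, the rest of the lung of 10 HDM and 12 PBS libraries at 3 weeks, by testing the difference in the same fit. It differed for 3005 of 17381 genes (17.3%) at a limma adjusted p under 0.05. Airway and parenchyma libraries of a treatment often carry adjacent codes, but the labels do not say that these share a mouse. Libraries were therefore treated as independent, and a pairing by adjacent codes was not tested. With runs of 20 library codes as a block the count was 3611. Of the genes upregulated in airways, 38 had a larger and 285 a smaller rise than in parenchyma, and of the downregulated genes that differed, 56 fell more in airways and the others less. Timp1 had a log2FC of 3.74 in airways and 5.79 in parenchyma (limma adjusted p of the difference 0.0014), Ccl8 4.09 and 6.06 (0.0053), and Cfb 2.52 and 4.41 (7.3e-05). Ccl11 had 0.57 in airways and 3.10 in parenchyma (limma adjusted p of the difference 0.0099). Acta2 had -0.55 and 0.89 (0.036).

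Several lists held more such differences than the 17.3% of all genes. In the glycolysis list 15 of 19 genes differed, in the dendritic cell and MHC class II list 12 of 22, in the macrophage list 11 of 24 and in the complement list 10 of 20, and in the glycolysis, dendritic cell and macrophage lists each of these had the lower log2FC in airways. Cd74 rose by a log2FC of 2.00 in airways and 2.69 in parenchyma (limma adjusted p of the difference 0.03). The airway libraries hold alveolar RNA, as given above, and its part in these values was not tested.

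**Figure D5:**
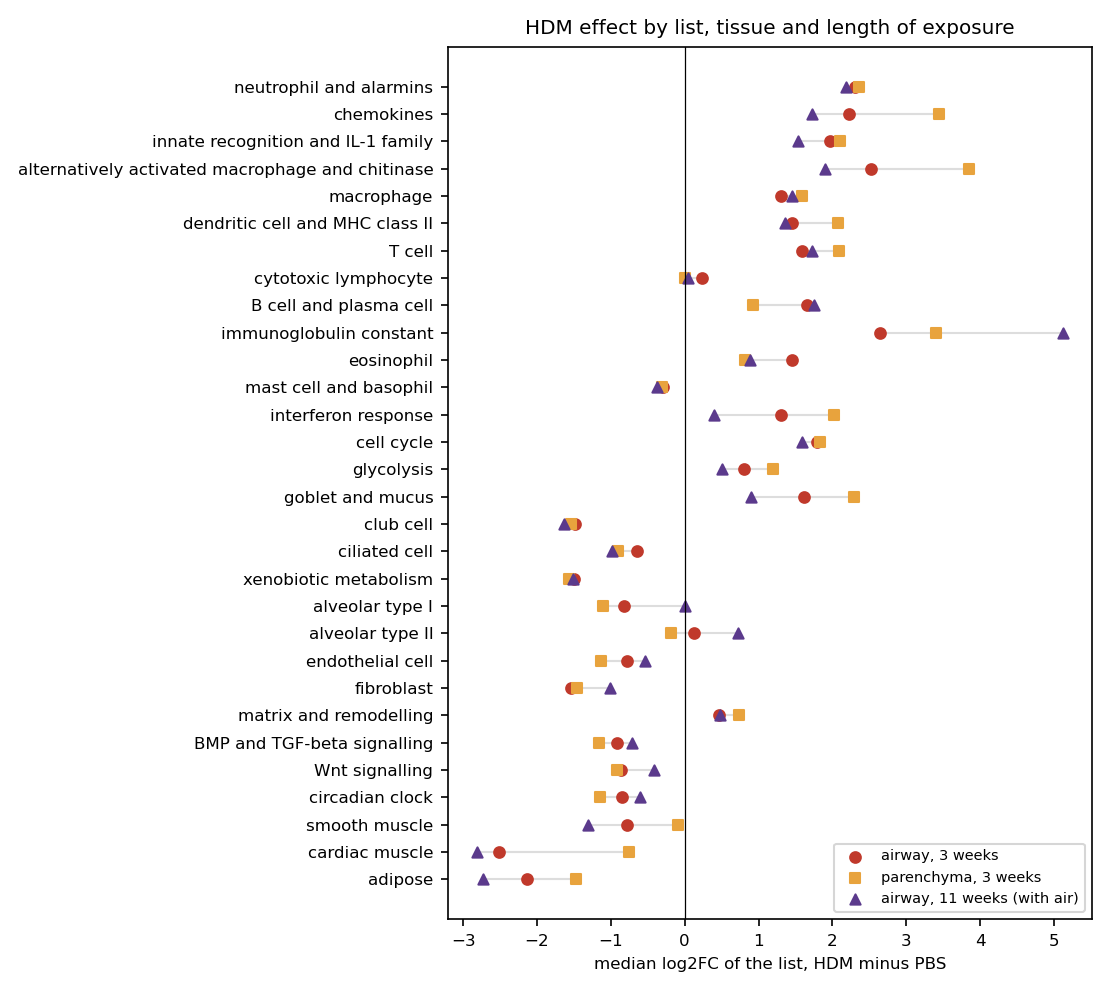
Median log2FC (HDM minus PBS) of the tested genes of each list of the same selection on the x axis. Red circles are airways at 3 weeks, orange squares parenchyma at 3 weeks and purple triangles airways at 11 weeks with air. The immunoglobulin constant list has a median of 2.65 at 3 weeks and 5.12 at 11 weeks, and the interferon list 1.30 and 0.40.

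The airway effect at 3 weeks was also set beside that at 11 weeks, where 10 mice received HDM with normal air, with 3 doses per week in the later weeks, and 10 controls PBS with air. In a fit of the airway libraries of both times the HDM effect differed for 4256 of 17608 genes (24.2%). Of the 2082 genes upregulated at 3 weeks and tested there, 1483 were upregulated at 11 weeks as well, and of 2011 downregulated genes 1015 were downregulated. The effect differed for 621 of the upregulated genes, with the larger rise at 3 weeks for 479, and for 548 of the downregulated genes, with the deeper fall at 3 weeks for 541. Their median log2FC was 1.72 at 3 weeks and 1.46 at 11 weeks for the upregulated genes, and -1.45 and -1.02 for the downregulated genes. Because those genes were chosen for their size at 3 weeks, a smaller median at 11 weeks follows in part from the choice.

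The lists parted in which way they differed between the times. Of 21 interferon genes 16 differed, all with the larger log2FC at 3 weeks. Isg15 had 1.54 at 3 weeks and 0.29 at 11 weeks (limma adjusted p of the difference 0.005), and Rsad2 2.52 and 0.89 (0.01). Of 16 fibroblast genes 9 differed, all with the deeper fall at 3 weeks, among them Inmt (-3.29 and -1.40, 6.4e-07) and Itga8 (-2.83 and -1.06, 1.1e-06). Immunoglobulin constant genes went the other way, as 5 of 9 differed, all with the larger log2FC at 11 weeks. Ighg1 had 2.65 at 3 weeks and 10.45 at 11 weeks (limma adjusted p of the difference 1.6e-06).

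Their levels, in CPM of the fit of both times, show which group differed. Ighg1 had a median of 1348 CPM in HDM airways at 3 weeks and 17435 CPM at 11 weeks, and 110.9 and 13.4 CPM in PBS airways. Inmt had medians of 171.4 and 492 CPM in HDM and 1686 and 1445 CPM in PBS airways.

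Cytokine and clock genes differed as well. Il17a had a log2FC of 4.06 at 3 weeks and 7.60 at 11 weeks (limma adjusted p of the difference 0.011). Clca1 had 6.46 and 2.91 (0.022), Ccr3 3.40 and 0.88 (7.7e-05), and Ccl24 1.18 and -1.57 (0.0055), of which the rise at 3 weeks lay at the limit of the call. Dbp had -2.85 and -0.65 (0.004), Nr1d1 -2.50 and -0.18 (0.0035), and Gata3 -1.20 and -0.01 (3.0e-04). For some of these genes it was the PBS groups that stood apart. Dbp had a median of 129.6 CPM in PBS airways at 3 weeks and 9.79 CPM at 11 weeks, against 20.4 and 9.49 CPM in HDM airways. Nr1d1 had 86.7 and 5.94 CPM in PBS airways, and 16.2 and 7.41 CPM in HDM airways. Il17a had 0.5901 and 0.0677 CPM in PBS airways, and 13.99 and 15.2 CPM in HDM airways. Ccr3 differed in the HDM groups, with 14.6 CPM at 3 weeks and 4.85 CPM at 11 weeks. The libraries of both times came from different mice, so exposure time, dosing schedule and processing of each set cannot be told apart.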

How the data were processed

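RNA-seq libraries of dissected mouse airways were compared at 3 weeks. Per the labels and the study's methods, the authors used bcl2fastq 2.20.0.422, STAR 2.5.1b, RSEM 1.2.31 and kallisto 0.44.0 with mm10, and deposited 1 table of estimated counts per gene, not scaled for depth or length. Which quantification made it, and its strand setting, are not given in the sources used here. Values, of which 20.3% above 0 were fractional, were rounded. Names and positions were taken from GENCODE M21 (GRCm38), to which 97.96% of 43346 identifiers matched without the version and 53.3% with it. Promoters come from RefSeq.

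The 43 libraries at 3 weeks were fitted together by limma-voom (limma 3.58.1, R 4.3.3) on TMM-normalized values (edgeR 4.0.16), with 1 mean per group and Benjamini-Hochberg adjustment. The filter kept genes that in 9 or more libraries passed the CPM to which 10 counts correspond in a library of median size. Called genes had an adjusted p under 0.05 and a log2FC beyond 1 or -1. Differences between tissues were an interaction in that fit, and those between 3 and 11 weeks a separate fit of 17608 genes. The scripts were tested on simulated data.

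Libraries are separate samples by their labels, and p-values measure the spread between libraries of a group. In the fit at 3 weeks that spread was estimated once per gene from all 43 libraries, parenchyma included, and not from the airways alone. No 2 libraries of a group agreed within sampling noise. The total count bounds the precision of low genes, and no fold was given against a group whose libraries all held 3 counts or fewer. Gene lists were written from general knowledge, and the comparison, lists and tests were chosen with earlier results of these data known. Named were core genes of allergic airways and, at a mean of at least 1 CPM, the called gene with the largest log2FC per list. Also named were the 8 largest rises and 8 largest falls without overlap at a mean of at least 5 CPM, and the Spi1 list. A few of these genes are not reported here. Aldh1a1, Arntl, Bmp4, Bmpr2, Cd74, Cxcl5, Cxcl13, Cyp2f2, Gata3, Gpihbp1, Hif1a, Hpgd, Igha, Ighm, Il1b, Isg15, Itga8, Lcn2, Lyz2, Nfil3, Nr1d1, Oasl1, Pdcd1, Per3, Rsad2, Scgb3a2, Sftpc, Tek, Timp1, Tslp, Zbp1 and the promoters shown were chosen after their values were seen. Alternatives were DESeq2 1.42.0, edgeR, other filters, scaling, weights, samples and a block of library codes.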

Additional observations from a re-analysis of the deposited data

Results flagged for a closer look

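In 8 cases, on the log2(CPM + 2) scale, the HDM airway library farthest from the other 9 was separated by more of the group's range than Dixon's test at the 95% level allows. Such gaps arise by chance in about 1 of 20 groups. All named genes were examined, so several such gaps are to be expected by chance, and the 8 are not taken as an excess. In 7 of these the library was X63, with the lowest value of its group for Cbln1 (1.21 CPM), Chil1 (747 CPM), Clec7a (143.3 CPM), Itgax (55.3 CPM), Sftpc (1332 CPM) and Siglecf (5.05 CPM) and the highest for Chrm3 (9.36 CPM). The other was X183, with the highest Gpihbp1 (49.9 CPM). X63 also held the highest cardiac list level and the highest neutrophil and alarmin list level of the HDM libraries. The part of these in its values was not tested.

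The HDM effect differed between airways and parenchyma at 3 weeks, at a limma adjusted p under 0.05 of the difference itself, for 14 named genes. Such a difference was found for 17.3% of all genes tested, so it is not particular to the named genes. The log2FC in airways less that in parenchyma was negative for Ccl11 (-2.53), Timp1 (-2.05), Ccl8 (-1.96), Cfb (-1.89), Acta2 (-1.43), Ptafr (-1.05), Hk3 (-0.82), Msr1 (-0.78), Cd74 (-0.69) and Nfil3 (-0.60). It was positive for Ednrb (0.86), Postn (0.75), Tppp3 (0.65) and Mtf1 (0.25). For Ednrb, Postn and Tppp3 the positive value means a smaller fall in airways.

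The HDM effect in airways differed between 3 and 11 weeks by the same rule for 33 named genes. Over all genes tested 24.2% differed, so this too is not particular to the named genes. The log2FC at 3 weeks less that at 11 weeks was most negative for Ighg1 (-7.75), Pcdha4 (-4.06) and Il17a (-3.50). It was also negative for Jchain (-2.66), Cyp1a1 (-2.64), Nr1d1 (-2.28), Dbp (-2.16), Igha (-2.14), Inmt (-1.85), Tmem35a (-1.80), Itga8 (-1.72), Wnt10b (-1.59), Pcolce2 (-1.34), Scgb1c1 (-1.25), Gata3 (-1.15), Hopx (-0.86) and Bmp4 (-0.73). It was positive for Gm15056 (3.93), Clca1 (3.58), Cxcl11 (3.03), Ccl24 (2.79), Ccr3 (2.56), Cxcl9 (2.24), Ccl17 (1.95), Rsad2 (1.67), Nfil3 (1.44), Isg15 (1.28), Gzmb (1.08), Ciita (1.02), Zbp1 (0.97), Top2a (0.71), Hif1a (0.49) and Mtf1 (0.46). Il13, with PBS libraries at the floor at 3 weeks, was left out.

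Of these, Ighg1 was at 32.1 to 4381 CPM in PBS airways at 3 weeks and at 1.24 to 47.1 CPM at 11 weeks, and at 9654 to 20484 CPM in HDM airways at 11 weeks. Dbp and Nr1d1 differed mainly in the PBS groups, as Dbp was at 101.8 to 163.8 CPM in PBS airways at 3 weeks and 5.31 to 87.3 CPM at 11 weeks. Pcdha4 did too, with medians of 9.78 and 0.7601 CPM in PBS airways and 0.134 and 0.261 CPM in HDM airways. Nfil3 had medians of 3.97 and 11.02 CPM in PBS airways and 18.9 and 14.6 CPM in HDM airways. Why the PBS groups of both times differ in these genes was not tested.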

How the results depend on the processing

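With all libraries 2110 genes were upregulated and 2057 downregulated, 3005 differed between tissues and 4256 between 3 and 11 weeks. A filter at a CPM of at least 10 in at least 9 libraries, which tests 11581 genes, gave 1099 up and 889 down. Testing in limma whether the log2FC exceeded 1 gave 1299 up, 844 down and 1 gene that differed between tissues. Leaving out 1 airway library at a time gave 2074 to 2215 up, 1835 to 2124 down, 2277 to 3446 differing between tissues and 3857 to 4470 between times. DESeq2 gave 2146 up and 1844 down, edgeR 2076 and 1938, the 21 airway libraries alone 2134 and 1744, and no filter 2955 and 2384. Leaving out X63, X81 and X21 together was chosen after seeing the data and gave 2226 up, 2186 down, 2263 and 4475. Signs turned for 3 named genes that were not called. Foxj1 had -0.06 with sample quality weights, -0.13 without the 3 libraries and -0.08 to 0.14 leaving out 1 at a time. Hlx had 0.04 without the 3 libraries and -0.12 to 0.02 leaving out 1, and Il1rl1 had 0.05 without the 3 libraries. Among called genes, leaving out 1 of the 21 airway libraries lost the call of Ccl24 in 15 fits, Arntl in 7, Gzmb in 6, Cdh19 in 2 and Sftpd in 1, and gained that of Spdef in 1. DESeq2 did not call Ighg1, Nppa (-1.89), Col11a1 (-1.38, a cartilage gene), Ucp1 (-1.10) or Cdh19 (-0.64), and edgeR did not call Ighg1, Ucp1 (-1.09), Cdh19 (-0.66), Arntl or Gzmb. Ucp1 was also not called with the 21 airway libraries or with all libraries, Cdh19 with the 21 or the block of codes (-1.06), and Chil4, Ccl24 and Arntl at the filter of 10 CPM. The cause of these changes was not tested. No replicate number is shared between groups, and a pairing of airway and parenchyma libraries by adjacent codes was not tested. Runs of 20 library codes, whose meaning the labels do not give, as a block gave 2022 up, 1993 down, 3611 between tissues and 4646 between times, and sample quality weights 2245, 2212 and 3982 between tissues. Depth limits Il5, Epx, Prg3, Ear10 and Ighe, which were too low to test.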

Other observations

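Further genes named by the same rule belong to lists described above by their counts. Cxcl11, an interferon-induced ligand of CXCR3, was 7.15 to 53.8 CPM (median 20.7) in HDM airways and 0.0707 to 1.05 CPM (median 0.395) in PBS airways (log2FC 5.79), and Oasl1, an interferon-induced antiviral factor, was 6.14 to 42.6 CPM (median 19.2) in HDM airways and 2.01 to 4.67 CPM (median 3.06) in PBS airways (log2FC 2.38). Stfa2, a cystatin of neutrophils, rose at low levels (log2FC 4.09), and so did Ighg3, of IgG3 (log2FC 5.16). None of these 4 genes overlapped between the groups. Chil1 (BRP-39), a chitinase-like protein, was 747 to 2920.5 CPM (median 2173) in HDM airways and 388 to 979 CPM (median 783) in PBS airways (log2FC 1.39), and X63 was the HDM library inside the PBS range. Scgb1c1, a secretoglobin, was 0.6398 to 2.57 CPM (median 1.11) in HDM airways and 3.53 to 14.004 CPM (median 9.84) in PBS airways (log2FC -3.02), without overlap.

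Genes that lead the lists of other tissues were mostly at a few CPM. Iyd, the iodotyrosine deiodinase of the thyroid, was 2.77 to 6.86 CPM (median 3.95) in HDM airways and 10.1 to 21.9 CPM (median 16.9) in PBS airways (log2FC -1.94), and Pvalb (parvalbumin) of fast muscle was 0.539 to 2.39 CPM (median 1.71) in HDM airways and 0.0354 to 0.5001 CPM (median 0.186) in PBS airways (log2FC 2.96). Both separated the groups, in opposite directions. Themis, a gene of thymocytes and T cells, had a log2FC of 1.29, and Cdh19, of Schwann cells, one of -1.59 with 4 HDM libraries below all PBS libraries, although DESeq2 (-0.64) and edgeR (-0.66) did not call it. Ucp1, of brown fat, had a range of 0 to 63.1 CPM (median 0.137) in HDM airways and 0.353 to 115.5 CPM (median 5.68) in PBS airways. Gpihbp1, which anchors lipoprotein lipase on capillaries, was 17.5 to 49.9 CPM (median 24.98) in HDM airways and 40.5 to 175.8 CPM (median 120.5) in PBS airways (log2FC -1.87).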
